A study of Mus musculus with 6 samples.

Results

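The thrombospondin family, the 4 genes Thbs1, Thbs2, Thbs3 and Thbs4 together with Comp, was followed in the pressure-overloaded left ventricle of mice with and without extra HINT2. The members were taken by gene name from the deposited count table, and 5 of its 54532 genes belong to the family. The family was picked with the lower level of Comp in TG hearts already known, so the differences of its members between the groups are descriptions, and counts of members called are printed only beside the share of all genes. RNA came from 3 TG and 3 NTG hearts, was selected by poly-A tail and was sequenced as 1 library per heart. All 6 hearts had undergone aortic banding (AB), in which a ligature narrows the aorta and loads the left ventricle. According to the methods, AB was performed in male mice at 8 to 10 weeks of age and hearts were examined 4 weeks later. TG mice have the genotype label HINT2CTG-Myh6Cre, and their transgene holds human HINT2 under a CAG promoter, silent until tamoxifen-activated Cre cuts out a floxed stop cassette. The Cre is driven by the Myh6 promoter and therefore acts in cardiomyocytes, whereas every cell of the ventricle contributes to the RNA measured. NTG mice are the non-transgenic controls, with the genotype label C57BL/6J. According to the methods, TG mice were injected with tamoxifen. Whether NTG mice carried Cre or received tamoxifen is not stated there. Effects of HINT2, Cre and tamoxifen therefore cannot be told apart in these groups. Sham-operated hearts were not analysed here, so every level below is a level after AB.

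Thrombospondins are secreted, calcium-binding glycoproteins that sit in the extracellular matrix and pass signals between matrix and cells. TSP-1 and TSP-2, the products of Thbs1 and Thbs2, form trimers, carry type 1 repeats and restrain angiogenesis through CD36, and TSP-1 can also release TGF-beta from its latent complex. TSP-3, TSP-4 and COMP form pentamers without type 1 repeats. TSP-4 is known for its increase in overloaded hearts, and COMP is best known from cartilage and tendon, where it binds collagens and fibronectin.

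The members are alike in sequence, which matters for how reads can be assigned to them. The 60 coding bases that were most alike between Comp and the other members are shown on the coding strand (GRCm38), with capitals for the 38 bases that are identical in all 5 genes.
Thbs1 (chr2:118123327-118123386, plus strand, exon 19 of 22): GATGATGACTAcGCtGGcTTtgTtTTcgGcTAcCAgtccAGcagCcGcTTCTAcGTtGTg
Thbs2 (chr17:14670747-14670806, minus strand, exon 19 of 22): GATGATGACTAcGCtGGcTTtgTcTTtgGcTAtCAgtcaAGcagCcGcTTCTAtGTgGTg
Thbs3 (chr3:89224869-89224928, plus strand, exon 20 of 23): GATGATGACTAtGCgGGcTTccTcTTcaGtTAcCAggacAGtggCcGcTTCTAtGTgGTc
Thbs4 (chr13:92755167-92755226, minus strand, exon 19 of 22): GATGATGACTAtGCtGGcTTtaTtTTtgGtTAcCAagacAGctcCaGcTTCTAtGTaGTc
Comp (chr8:70380164-70380223, plus strand, exon 16 of 19): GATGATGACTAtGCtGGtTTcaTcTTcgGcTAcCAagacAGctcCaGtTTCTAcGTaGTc
In this window Thbs4 had 53 of 60 bases in common with Comp, Thbs3 had 47, Thbs1 had 46 and Thbs2 had 43. Across whole coding sequences, the longest run of bases shared by any pair was 26, which was reached by Comp with Thbs4 and by Thbs1 with Thbs2. A search with every 50-base word of each member's longest coding transcript found 0 words in the transcripts of another member. Overlap with genes outside the family was limited to Thbs1, with 94 words (1.62%) in the antisense lincRNA Gm29233, and Thbs3, with 137 words (4.36%) in the antisense gene Mtx1.

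The genes are spread over 5 chromosomes (GRCm38). Thbs1 (ENSMUSG00000040152) lies at chr2:118111876-118127133 on the plus strand, and Thbs2 (ENSMUSG00000023885) at chr17:14665500-14694235 on the minus strand. Thbs3 (ENSMUSG00000028047) lies at chr3:89215180-89226837 on the plus strand, Thbs4 (ENSMUSG00000021702) at chr13:92751590-92794818 on the minus strand, and Comp (ENSMUSG00000031849) at chr8:70373558-70382066 on the plus strand. Start-site sequences from RefSeq (GRCm38.p6) were matched for 3 members, Thbs2, Thbs3 and Thbs4, and not for Thbs1 and Comp. The 250 bases before the start are shown for these 3 genes, with capitals for motif matches. Whether they bear on the levels or on the differences between the groups was not tested.
Thbs2 (chr17:14694263-14694512, minus strand): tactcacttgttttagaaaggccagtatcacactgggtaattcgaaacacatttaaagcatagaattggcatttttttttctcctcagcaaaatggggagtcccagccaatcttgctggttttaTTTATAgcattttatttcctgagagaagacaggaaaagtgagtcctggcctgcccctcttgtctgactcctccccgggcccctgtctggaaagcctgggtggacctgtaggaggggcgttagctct
Thbs3 (chr3:89214930-89215179, plus strand): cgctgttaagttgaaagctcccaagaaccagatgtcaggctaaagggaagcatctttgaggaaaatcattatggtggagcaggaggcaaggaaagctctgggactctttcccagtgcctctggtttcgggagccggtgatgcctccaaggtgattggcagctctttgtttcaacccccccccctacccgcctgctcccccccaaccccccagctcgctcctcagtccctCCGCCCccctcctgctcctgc
Thbs4 (chr13:92794819-92795068, minus strand): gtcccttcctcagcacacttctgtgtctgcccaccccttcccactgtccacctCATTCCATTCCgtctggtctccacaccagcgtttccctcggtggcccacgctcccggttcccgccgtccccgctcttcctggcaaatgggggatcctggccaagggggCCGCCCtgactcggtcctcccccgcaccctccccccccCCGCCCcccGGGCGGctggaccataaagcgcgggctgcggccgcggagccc
Motifs were searched on both strands and compared with 32851 windows of the same length. The TATA box, spelled TATAAA, was held by 12.4% of these windows. The TEAD site was spelled CATTCC and was held by 12.6% of all windows. For the AP-1 site the letters were TGANTCA, found in 6.75% of windows, and the GC box was taken as GGGCGG, which 32.7% of windows contained. Thbs4 held 2 matches to the TEAD letters, which overlap by their shared C, and 3 GC boxes. Thbs2 held 1 TATA match on the opposite strand with 120 bases between it and the start, and Thbs3 held 1 GC box. The AP-1 letters were found in 0 of the 3 windows. GC content was 46.8% for Thbs2, 58.8% for Thbs3 and 70.8% for Thbs4. These matches describe letters, not bound sites.

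Libraries held 14863568 to 17581220 counts on genes, and the family took 0.120% to 0.247% of them in NTG and 0.0305% to 0.127% in TG. The library labelled NTG 1 stood apart from its group. It held 12 counts of mouse Hint2 against 545 and 559 in the other NTG libraries and 793 to 859 in TG. On the first principal component (52.3% of the variance) it was placed at -5.08, between the other NTG libraries at 29.3 and 55.7 and the TG libraries at -36.5 to -10.7. Since the transgene is human, counts on mouse Hint2 are no direct check of it, and whether its reads were counted there was not tested. Atrial light chain Myl7 was at 19.5 CPM in NTG 1, 7.67 in TG 2 and 64.4 in TG 3, against 0 to 1.59 in the other libraries. The differences of the members are therefore given with and without NTG 1.

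Levels of different genes were compared as CPM per kb, that is CPM (counts scaled to a common library size, here with TMM factors) divided by the gene length in kilobases. Per length, 3 members lay far above the other 2, which were near the middle of all genes. In NTG hearts, Thbs4 was at 146 ± 49.4 CPM per kb (SD, n = 3), Thbs1 at 124 ± 37.0 and Comp at 115 ± 63.7. Thbs2 was at 6.15 ± 2.15 and Thbs3 at 4.95 ± 1.70. In TG hearts, Thbs1 was at 79.1 ± 59.2 CPM per kb, Thbs4 at 30.1 ± 29.5, Comp at 18.7 ± 13.1, Thbs2 at 3.70 ± 0.216 and Thbs3 at 2.58 ± 0.738. Over all hearts, Thbs1, Thbs4 and Comp lay above 97.1%, 96.6% and 95.7% of the genes tested in level per length, and Thbs2 and Thbs3 above 55.7% and 48.7%.

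The order of the levels was tested across the 6 hearts, since it was not used to choose the genes. Of the 10 pairs of members, 7 had the same order in 6 of 6 hearts (exact two-sided sign-flip permutation test, p = 0.03125, the smallest it can give, and adjusted p = 0.0446 over the 10 pairs). Each of Thbs1, Thbs4 and Comp was above each of Thbs2 and Thbs3, by mean log2 differences of 3.12 to 4.69. The size of the gap differed by group for Comp and Thbs4, at 4.12 to 4.89 in NTG and 2.12 to 3.14 in TG over their 4 pairs, and less so for Thbs1, at 4.36 and 4.68 in NTG and 4.16 and 4.71 in TG. Thbs4 was above Comp in 6 of 6 hearts as well, by 0.46 ± 0.35 (SD) on the log2 scale. For the other 3 pairs the order was not the same in every heart. Thbs1 was above Comp in 4 of 6 hearts (mean log2 difference 1.13, exact permutation p = 0.125, adjusted p = 0.139) and above Thbs4 in 4 of 6 (0.67, exact permutation p = 0.219, the same after adjustment). These pairs differed by group, with Thbs1 over Comp at 0.23 in NTG and 2.04 in TG and Thbs1 over Thbs4 at -0.22 in NTG and 1.57 in TG (mean log2 differences), and this rests on the contrast that the family was chosen with. Thbs2 was above Thbs3 in 5 of 6 hearts (0.44, exact permutation p = 0.0938, adjusted p = 0.117). The order of neighbours depended on the length used. With the length of the longest coding transcript, Thbs4 was above Comp in 4 of 6 hearts, by 0.20 on the log2 scale (exact permutation p = 0.281, adjusted p = 0.313), and Thbs2 was above Thbs3 in 4 of 6, by 0.088. The other 6 pairs then had the same order in 6 of 6 hearts, by 3.17 to 4.15 (exact permutation p = 0.03125, adjusted p = 0.0521, since fewer pairs reached the smallest p).

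**Figure D1:**
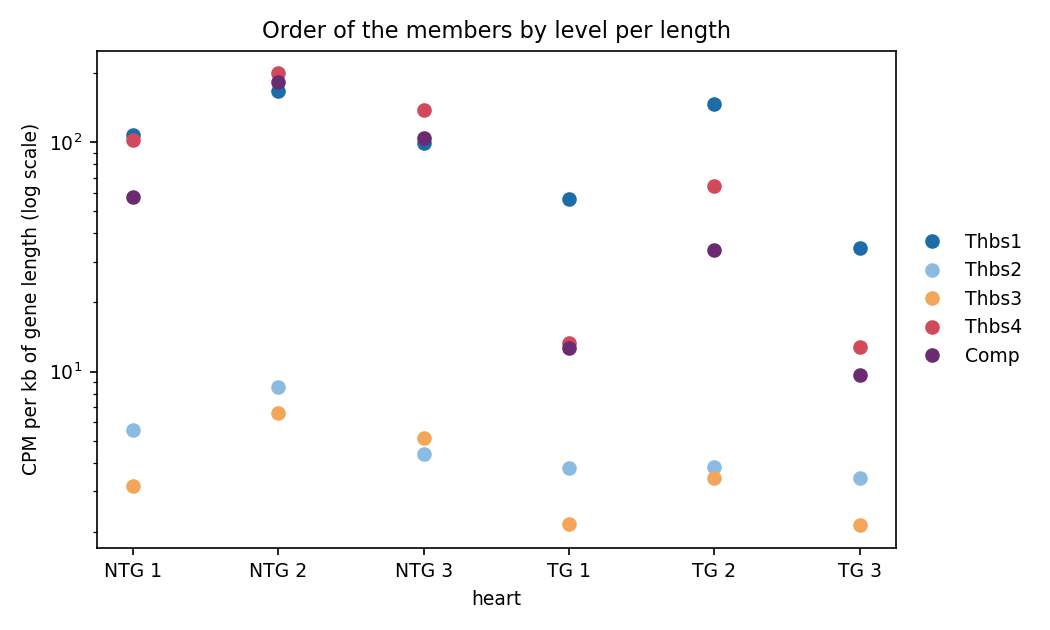
Level of each thrombospondin gene in each heart, as CPM per kb of gene length on a log axis, where each point is 1 library and colours mark the genes. In all 6 hearts Thbs1, Thbs4 and Comp (9.70 to 199.5 CPM per kb) sit above Thbs2 and Thbs3 (2.14 to 8.54), and Thbs1 is the highest member in all 3 TG hearts.

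Among the trimeric members, Thbs1 encodes the founding thrombospondin, an activator of latent TGF-beta. It was measured at 654, 1014 and 600.3 CPM in NTG 1 to 3 and at 342, 888 and 211 CPM in TG 1 to 3. The groups overlapped, because TG 2 lay above NTG 1 and NTG 3. The group means were 756 ± 225 CPM in NTG and 480.4 ± 359 in TG (SD, n = 3 each), and the log2 fold change of TG over NTG was -0.65 ± 0.52 (SE, edgeR). Single hearts weighed on this value, which was -1.45 ± 0.32 without TG 2, -0.30 ± 0.42 without TG 3 and -0.39 ± 0.68 without NTG 2.

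Thbs2, the close relative of Thbs1 whose product does not activate latent TGF-beta, varied least among the TG hearts. It was measured at 38.8, 59.8 and 30.6 CPM in NTG and at 26.7, 26.8 and 24.1 CPM in TG. All TG hearts lay below all NTG hearts, and NTG 2 was well above the rest. The means were 43.1 ± 15.1 and 25.9 ± 1.52 CPM, with a log2 fold change of -0.74 ± 0.23 (SE). Within TG the SD of Thbs2 was 5.86% of its mean, against 28.6% to 98.0% for the other members. Without NTG 2 the log2 fold change was -0.42.

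Of the pentameric members, Thbs4 and Comp differed most. Comp was measured at 171, 544 and 308 CPM in NTG and at 37.6, 100.1 and 28.8 CPM in TG. The groups did not overlap, and the lowest NTG heart, NTG 1, was above the highest TG heart, TG 2. The means were 341 ± 189 CPM in NTG and 55.5 ± 38.9 in TG, a ratio of 6.15, and the log2 fold change was -2.62 ± 0.61 (SE). Only 25 of the 14774 genes tested had a lower fold change, the value that the family was chosen with. The counts behind it ran from 466 to 10252.

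Thbs4, which is known to help the secretory pathway of stressed cardiomyocytes, was measured at 335, 656 and 452 CPM in NTG and at 43.8, 211 and 42.2 CPM in TG. Again all TG hearts were below all NTG hearts, while TG 2 stood 5.00 times above the lowest TG heart. The means were 481 ± 162 and 99.1 ± 97.1 CPM, a ratio of 4.86, with a log2 fold change of -2.28 ± 0.69 (SE). Without TG 2 it was -3.48 ± 0.32, and without NTG 1 it was -2.49 ± 0.91.

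Thbs3, a member with a role in skeletal development, was measured at 15.3, 31.7 and 24.7 CPM in NTG and at 10.5, 16.5 and 10.3 CPM in TG. NTG 1 lay below TG 2, so the groups overlapped by this single pair of hearts. The means were 23.9 ± 8.21 and 12.4 ± 3.56 CPM, and the log2 fold change was -0.94 ± 0.30 (SE). Without NTG 1 the groups did not overlap, and the value was -1.18 ± 0.23.

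**Figure D2:**
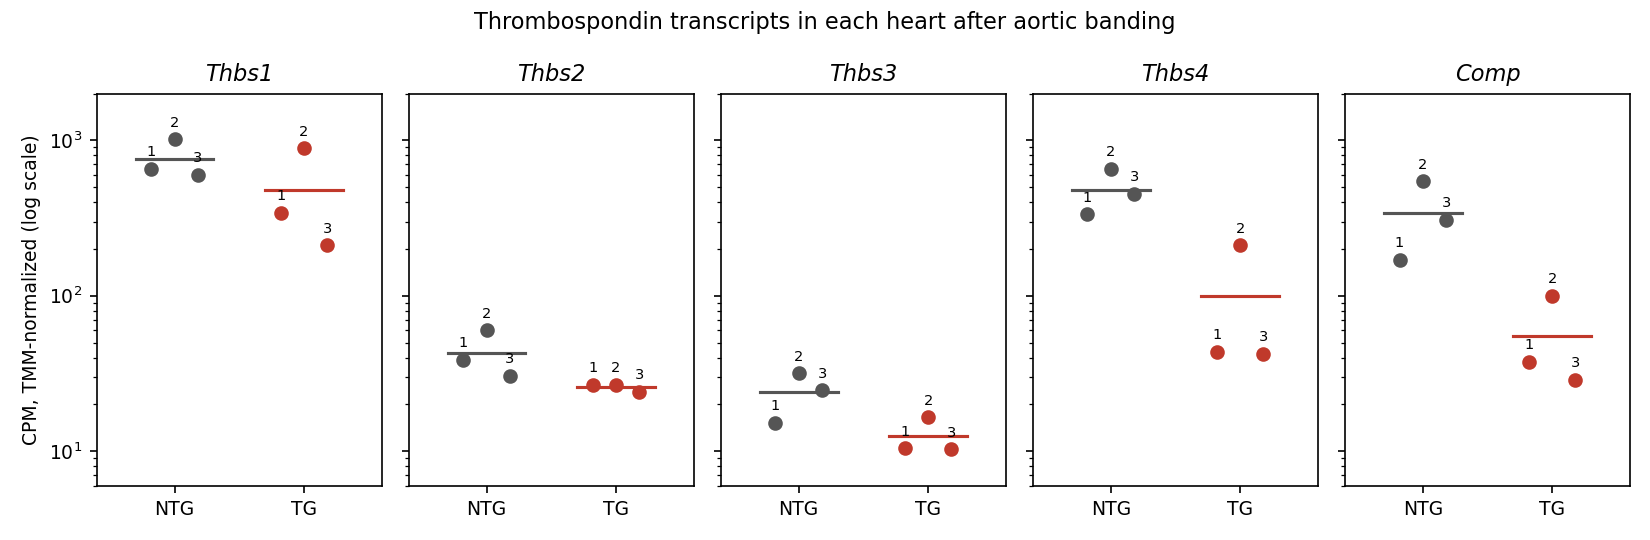
CPM (TMM-normalized, log axis) of the 5 thrombospondin genes in NTG (grey) and TG (red) hearts, where each point is 1 library with its replicate number and horizontal lines are group means (n = 3). Replicate 2 is the highest point of both groups in every panel, and the groups are fully separated for Thbs2, Thbs4 and Comp.

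Over the family, the log2 fold change was below 0 for 5 of 5 members, as it was for 51.3% of all genes tested, and the median was -0.94 against -0.0081 for all genes. All TG hearts lay below all NTG hearts for 3 members, where the share among all genes was 12.3% in this direction and 11.2% in the other. With calls made where the adjusted p was under 0.05 and the log2 fold change exceeded 0.5 in either direction, edgeR called 0 members and 0 of all genes (0% higher and 0% lower). At an unadjusted p under 0.05, 4 members were lower, against 9.76% of all genes that were lower and 8.83% that were higher. DESeq2 called 2 members lower, Comp and Thbs3, against 2.4% of all genes lower and 1.54% higher. Without NTG 1, edgeR called 1 member lower, Thbs3, against 2.85% of the 15136 genes then tested called lower and 2.67% called higher, and the groups did not overlap for 4 members, against 23.6% of all genes. Since the contrast was known when the family was chosen, nothing is read from these counts.

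Leaving out NTG 1 gave a lower log2 fold change for 5 of 5 members, namely -2.94 ± 0.67 for Comp, -0.75 ± 0.70 for Thbs1 and -0.81 ± 0.28 for Thbs2 (SE) beside the values given above for Thbs3 and Thbs4. Leaving out NTG 2 brought it closer to 0, to -2.11 for Comp, -1.99 for Thbs4, -0.69 for Thbs3 and -0.39 for Thbs1. Without TG 2, Comp was at -3.36 and Thbs3 at -1.20. The sign was negative for all 5 members in each of these fits.

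**Figure D3:**
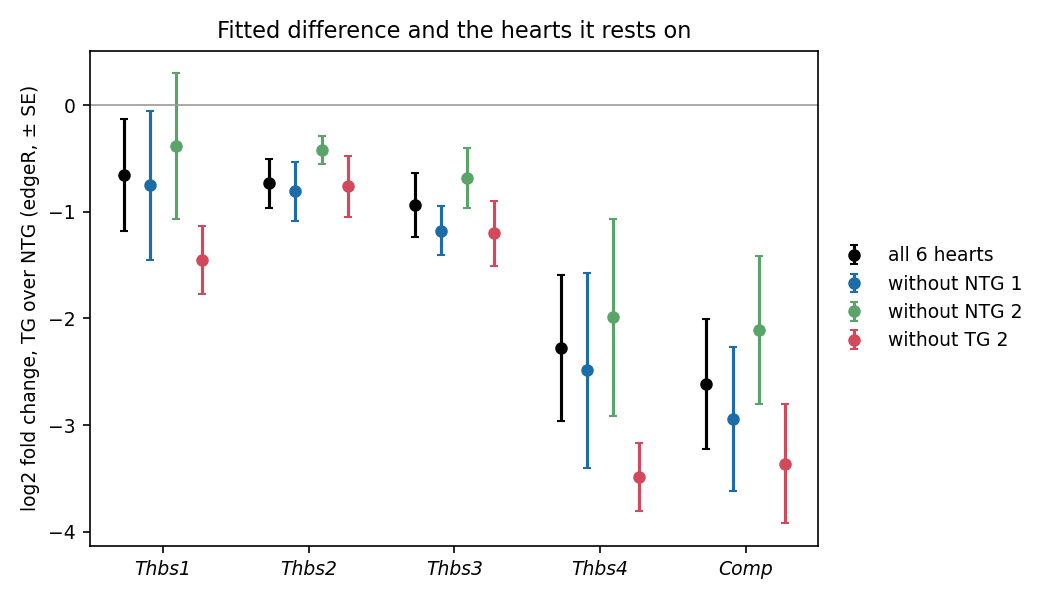
Log2 fold change of TG over NTG for each member (edgeR, points with ± SE) from all 6 hearts and without NTG 1, NTG 2 or TG 2. Comp and Thbs4 lie between -3.48 and -1.99 in these 4 fits and the other members between -1.45 and -0.39, and Thbs4 moves most when TG 2 is left out.

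The 5 genes shared their highest heart in each group. NTG 2 was the highest NTG heart and TG 2 the highest TG heart for 5 of 5 members, a pattern that 16.3% of all genes tested had (36% for NTG 2 and 35.3% for TG 2 alone). TG 3 was the lowest TG heart for every member, whereas the lowest NTG heart was NTG 1 for Comp, Thbs3 and Thbs4 and NTG 3 for Thbs1 and Thbs2. The share of all genes with these lowest hearts was not counted, so nothing is read from them. On the first principal component, TG 3 and NTG 1 were also the lowest of their groups. Family level per length summed over members was 276, 565 and 350 CPM per kb in NTG 1 to 3 and 88.3, 251 and 62.8 in TG 1 to 3, so TG 2 lay just below NTG 1. Over the 6 libraries, the log2 CPM of Comp went most closely with that of Thbs4 (Pearson r = 0.98, and 0.92 around the group means) and of Thbs3 (0.97 and 0.96). Thbs2 was the least alike, with r of 0.68 with Thbs1 and 0.76 with Thbs4, and of 0.47 and 0.32 around the group means. These correlations are descriptions over 6 libraries that share the contrast and their depth.

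The makeup of the family also differed between the groups. Thbs1 took 28.3% to 39.0% of the summed family level per length in NTG and 55.2% to 63.8% in TG, with means of 32.3% ± 5.89 and 59.1% ± 4.36 (SD, n = 3 each). Thbs4 took 37.2% ± 2.02 in NTG and 20.4% ± 5.23 in TG, and Comp took 27.7% ± 6.06 and 14.4% ± 1.01. The ranges of the groups did not overlap for these 3 genes. Thbs2 took 1.59% ± 0.385 and 3.78% ± 2.04, and Thbs3 took 1.26% ± 0.179 and 2.41% ± 1.02. The shares sum to the whole and rest on the same contrast as the fold changes, so they are given with no test.

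**Figure D4:**
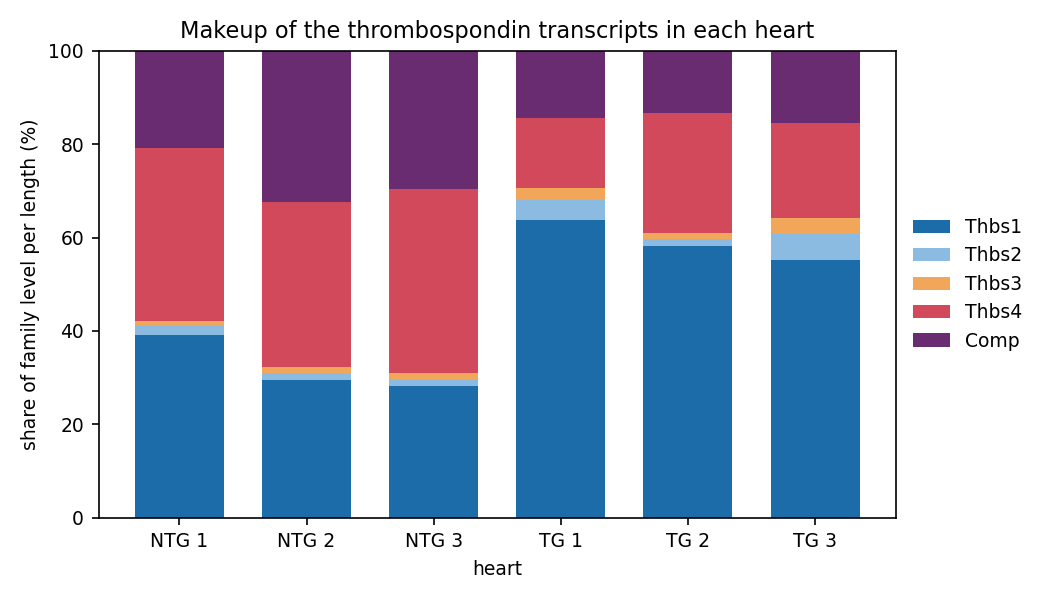
Share of the summed family level per length (CPM per kb, %) taken by each member in each heart, as stacked bars from 0. Thbs1 takes 28.3% to 39.0% in the NTG hearts and 55.2% to 63.8% in the TG hearts, while the shares of Thbs4 and Comp are smaller in TG.

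Thrombospondins are made by fibroblasts among other cells, so the levels of cell type markers are given beside them. In bulk tissue, fewer cells of a type and less RNA per cell cannot be told apart. Of 8 activated fibroblast markers, such as Postn and Cthrc1, 8 had a log2 fold change below 0 (51.3% of all genes) and 6 did so at an unadjusted p under 0.05 (9.76% of all genes lower and 8.83% higher, the shares to read beside the marker counts that follow). Their summed level was 1874, 5141 and 3326 CPM in NTG 1 to 3 and 599.6, 1304 and 416.5 in TG 1 to 3. The hearts ranked in the same order by this sum, by Comp and along the first principal component of all genes tested. That order is therefore not particular to Comp and these markers. Most of this sum came from Postn and Cilp, which made up 79.8% to 88.4% of it in NTG and 65.4% to 75.3% in TG and had log2 fold changes of -2.54 and -2.08, while Meox1 and Fap of the same list were at -0.52 and -0.27. Of 8 resident fibroblast markers, 7 had a log2 fold change below 0, 3 of them at an unadjusted p under 0.05, with sums of 4590 to 5058 CPM in NTG and 3606 to 4942 in TG. The exception, Gsn (log2 fold change 0.24), made up 28.7% to 47.3% of the sum in NTG and 52.7% to 57.4% in TG. Without it, the other 7 markers summed to 2477 to 3274 CPM in NTG and 1673 to 2336 in TG, with no overlap. All 8 ventricular cardiomyocyte markers had a log2 fold change above 0, 2 of them at an unadjusted p under 0.05, with sums of 20713 to 34961 CPM in NTG and 33795 to 41848 in TG. The defining markers of ventricular muscle were thus present in both groups, and none of the markers in these 3 lists was at 0 in any library.

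Macrophage markers had log2 fold changes below 0 for 7 of 7 genes, 3 of them at an unadjusted p under 0.05, and summed to 477 to 924 CPM in NTG and 375 to 529 in TG. Red cell markers were lower at an unadjusted p under 0.05 for 5 of 5 tested (9.76% of all genes), DESeq2 called 4 of them (2.4% of all genes), and their sums were 1310 to 2247 and 762 to 908 CPM. Platelet and megakaryocyte markers, of interest because platelets store TSP-1, were at 24.2 to 38.4 CPM in NTG and 27.5 to 34.8 in TG, with 3 of 8 tested and Gp1bb at 0 in all libraries. Of 6 atrial markers 5 were tested, and 0 of them passed an unadjusted p under 0.05. Myl7 and Bmp10 were at 0 in some libraries, and the sums of the list were 85.3, 23.3 and 27.2 CPM in NTG 1 to 3 and 28.1, 47.2 and 193 in TG 1 to 3, with TG 3 and NTG 1 the highest of their groups. Epicardial markers, with 2 of 6 tested, summed to 66.8 to 99.9 CPM in NTG and 37.3 to 55.1 in TG, and Upk3b, Upk1b and Krt19 were at 0 in some libraries. The markers tested were Aldh1a2, at 48.4 ± 24.9 CPM in NTG and 17.1 ± 3.42 in TG (edgeR adjusted p = 0.196, DESeq2 adjusted p = 0.00244), and Wt1, at 28.7 ± 11.4 and 30.2 ± 6.36 CPM (log2 fold change 0.08 ± 0.29). Of 8 smooth muscle and pericyte markers, 3 were higher and 0 lower at an unadjusted p under 0.05. These were Myh11, Acta2 and Cnn1, whose groups did not overlap, and DESeq2 called 2 markers higher (1.54% of all genes). Of 6 endothelial markers, 1 was higher and 0 were lower at an unadjusted p under 0.05. The part of these cell types in the results on thrombospondins was not tested.

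A further scale, chosen after the values were seen, set each member against the summed activated fibroblast markers of the same heart. Comp stood at 9.11%, 10.6% and 9.26% of that sum in NTG and at 6.27%, 7.67% and 6.91% in TG, with no overlap. Thbs4 overlapped, at 17.9%, 12.8% and 13.6% in NTG and 7.30%, 16.2% and 10.1% in TG. For the other members the mean was greater in TG on this scale. Thbs1 was at 34.9%, 19.7% and 18.1% in NTG and at 57.1%, 68.1% and 50.6% in TG, with no overlap. Thbs3 did not overlap either, at 0.816%, 0.616% and 0.743% in NTG and 1.74%, 1.27% and 2.48% in TG. Thbs2 was at 2.07%, 1.16% and 0.920% in NTG and 4.45%, 2.06% and 5.80% in TG, and NTG 1 and TG 2 overlapped. The separation of Thbs1 and Thbs3 depended on Postn and Cilp. Against the sum of the other 6 markers the groups overlapped for Thbs1, Thbs2 and Thbs3, with Thbs1 at 173%, 170% and 141% in NTG and 203%, 276% and 146% in TG. On that sum Comp was at 69.5% ± 23.1 in NTG and 24.4% ± 5.85 in TG and Thbs4 at 102% ± 11.3 and 40.3% ± 22.0 (SD, n = 3 each), with no overlap for either. Against resident fibroblast markers, Comp was at 7.19% ± 4.22 in NTG and 1.26% ± 0.679 in TG (SD, n = 3 each), Thbs4 at 10.1% ± 3.72 and 2.18% ± 1.81, and Thbs1 at 16.0% ± 5.40 and 10.9% ± 6.46. On the same scale Thbs2 was at 0.911% ± 0.357 and 0.630% ± 0.1005, and Thbs3 at 0.501% ± 0.182 and 0.295% ± 0.0380. The sign of the difference in means for Thbs1, Thbs2 and Thbs3 thus depended on which marker sum they were divided by. For Comp and Thbs4 the mean was lower in TG on each scale, although Thbs4 overlapped on the full activated sum. These scales hold the contrast that the family was chosen with, and whether the levels follow fibroblast content was not tested. Against the resident markers without Gsn, Thbs1 was at 26.2% ± 4.86 and 23.6% ± 13.1, Thbs2 at 1.49% ± 0.377 and 1.39% ± 0.225 and Thbs3 at 0.820% ± 0.181 and 0.647% ± 0.0536, with overlap for these 3 genes, whereas Comp (11.5% ± 4.89 and 2.74% ± 1.36) and Thbs4 (16.5% ± 3.29 and 4.72% ± 3.75) did not overlap.

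Genes at the same loci were looked at because reads on opposite strands may have been counted together. Mtx1, which encodes the mitochondrial import protein metaxin, spans chr3:89209081-89227088 on the minus strand and contains Thbs3. It was at 12.3 ± 1.17 CPM in NTG and 14.2 ± 2.07 in TG, a log2 fold change of 0.21 ± 0.15 (SE, edgeR adjusted p = 0.462), opposite in sign to Thbs3. Downstream of Thbs3, the mucin gene Muc1 was at 1.21 CPM in NTG and 0.426 in TG (log2 fold change -1.45 ± 0.50, edgeR adjusted p = 0.215). Beside Comp, Crtc1, a coactivator of CREB, was at 18.2 and 16.9 CPM (log2 fold change -0.11 ± 0.13). Gm29233, within Thbs1, had 0 counts in all libraries, and Gm13986, beside Thbs1, had at most 4.

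The pathway around the thrombospondins was described with 5 lists, in which edgeR called 0 genes. Read against 9.76% lower and 8.83% higher among all genes at an unadjusted p under 0.05, 7 of 25 receptors tested were lower and 1 was higher, with a median log2 fold change of -0.30, which was -0.19 without NTG 1, -0.12 without NTG 2 and -0.20 without TG 1. DESeq2 called 1 of them lower and 0 higher (2.4% and 1.54% of all genes), and the gene called was the integrin subunit Itgb5. It was at 254, 407 and 339 CPM in NTG and at 159, 229 and 164 in TG, with a log2 fold change of -0.85 ± 0.21 (SE) and an adjusted p of 0.196 by edgeR and 0.00702 by DESeq2. Its partner Itgav was at 71.1 ± 15.5 CPM in NTG and 47.7 ± 7.33 in TG (SD), a log2 fold change of -0.58 ± 0.17 (edgeR adjusted p = 0.203). The heparan sulfate proteoglycan Sdc1 was at 23.2 ± 5.66 and 14.2 ± 3.02 CPM, a log2 fold change of -0.72 ± 0.22 (edgeR adjusted p = 0.203). The TSP-1 receptors Cd36 and Cd47 had log2 fold changes of -0.03 and -0.32.

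Matrix partners and proteases had the lowest median of the 5 lists, -0.87, or -0.55 without NTG 2. At an unadjusted p under 0.05, 16 of 24 genes tested were lower and 0 were higher, DESeq2 called 8 lower (2.4% of all genes), and the TG hearts lay below all NTG hearts for 13 (12.3% of all genes). Col12a1, a collagen that associates with fibrils, was at 69.4, 146 and 112 CPM in NTG and at 14.4, 39.4 and 10.7 in TG, with a log2 fold change of -2.34 ± 0.53 (SE) and an adjusted p of 0.196 by edgeR and 0.0129 by DESeq2. Fibronectin (Fn1), a ligand of COMP, was at 714 ± 447 CPM in NTG and 200.3 ± 61.7 in TG, a log2 fold change of -1.83 ± 0.46 (adjusted p = 0.196 by edgeR and 0.0404 by DESeq2). Fibulin 1 (Fbln1) was at 192 ± 44.9 and 104 ± 24.3 CPM, a log2 fold change of -0.89 ± 0.22 (adjusted p = 0.196 by edgeR and 0.00751 by DESeq2). Matn1, Plg and Elane had 0 counts in all libraries.

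Of 22 genes of TGF-beta activation and response, 9 were lower (9.76% of all genes) and 0 higher (8.83%) at an unadjusted p under 0.05, and DESeq2 called 5 lower (2.4%). Their median log2 fold change was -0.26, or -0.17 without TG 3. The receptor Tgfbr1 was at 83.9 ± 23.2 CPM in NTG and 48.2 ± 4.45 in TG, a log2 fold change of -0.80 ± 0.19 (adjusted p = 0.196 by edgeR and 0.0092 by DESeq2). The ligands Tgfb2 and Tgfb3 had log2 fold changes of -1.11 ± 0.27 and -0.68 ± 0.18 (adjusted p = 0.196 each by edgeR, and 0.00445 and 0.028 by DESeq2). Tgfb1, the ligand that TSP-1 is best known to activate, was at 96.6 CPM in NTG and 95.2 in TG, a log2 fold change of -0.02.

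The ATF6 and ER folding list was included because TSP-4 is known to act on ATF6 inside the endoplasmic reticulum. Its 25 genes had a median log2 fold change of -0.0066, a value that changed sign in 6 of 22 alternative fits. At an unadjusted p under 0.05, 0 were lower (9.76% of all genes) and 2 were higher (8.83%). DESeq2 called 0 of them (2.4% of all genes lower and 1.54% higher). Pdia3, Edem1 and Xbp1, the genes that the rule names, had log2 fold changes of -0.27, -0.27 and -0.16, with edgeR adjusted p of 0.299, 0.358 and 0.422. The rule takes its direction from the median, and both genes that passed the unadjusted p went the other way, namely Ddit3, which encodes the stress factor CHOP, with a log2 fold change of 0.55 ± 0.20, and the co-chaperone Dnajb9 with 0.25 ± 0.11 (edgeR adjusted p = 0.218 and 0.265). Atf6 itself was at 137 CPM in NTG and 154 in TG.

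Tendon, cartilage and valve matrix genes, the usual company of COMP, could be tested for 16 of 26, and the rest had too few counts. At an unadjusted p under 0.05, 4 were lower (9.76% of all genes) and 2 were higher (8.83%), DESeq2 called 4 lower (2.4%) and 0 higher (1.54%), and the median was -0.33. That median moved to -0.12 without NTG 1, -0.20 without TG 1 and -0.067 with no low-count filter, which adds the scarce genes. The cartilage protein Cilp was at 783 ± 214 CPM in NTG and 185 ± 112 in TG, a log2 fold change of -2.08 ± 0.45 (DESeq2 adjusted p = 0.0102). Lubricin (Prg4) was at 159 ± 121 and 33.3 ± 4.25 CPM, a log2 fold change of -2.26 ± 0.52 (DESeq2 adjusted p = 0.0115). The collagen-binding proteoglycan Fmod was at 118 ± 28.2 and 31.5 ± 19.1 CPM, a log2 fold change of -1.90 ± 0.45 (DESeq2 adjusted p = 0.000244). The edgeR adjusted p was 0.196 for each of these 3 genes. The 2 genes that were higher at an unadjusted p were at low levels. Cnmd, which encodes the cartilage protein chondromodulin, was at 0.349 ± 0.175 CPM in NTG and 1.41 ± 0.664 in TG without overlap, a log2 fold change of 2.02 ± 0.55 (edgeR adjusted p = 0.196). The collagen gene Col11a2 was at 1.78 ± 0.825 and 3.20 ± 0.653 CPM, a log2 fold change of 0.87 ± 0.36 (edgeR adjusted p = 0.254). The regulators Sox9 and Scx had log2 fold changes of -0.06 and -0.26, and Snorc, Matn1 and Otor had 0 counts in all libraries.

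Without NTG 1, edgeR called 2 receptors, 4 matrix partners and 1 TGF-beta gene lower, with 0 folding genes and 0 tendon and cartilage genes, and it called 1 TGF-beta gene and 1 tendon and cartilage gene higher. In that fit 2.85% of all genes were called lower and 2.67% higher. Calr is in the lists of receptors and of folding genes, Acan and Matn4 are among the genes of both matrix lists, and Cilp is also one of the activated fibroblast markers.

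**Figure D5:**
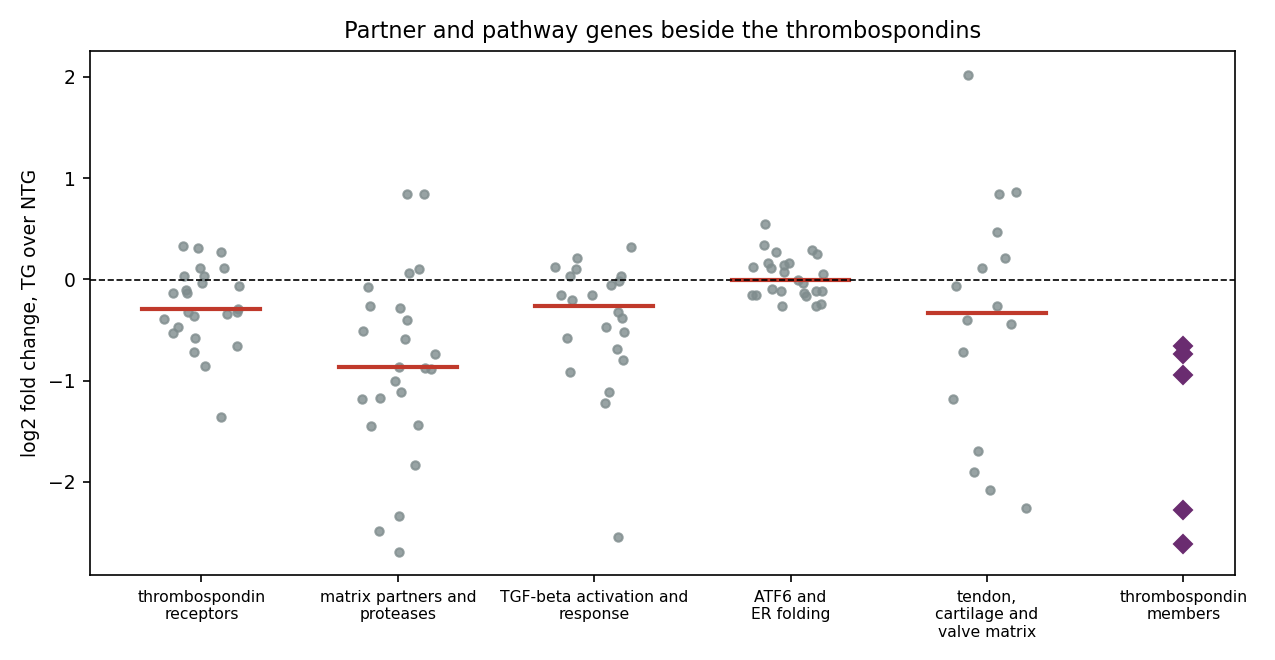
Log2 fold change of TG over NTG (edgeR) for the genes tested in 5 lists around the thrombospondins (grey points, red line at the median) and for the 5 members (purple diamonds). Medians run from -0.87 for matrix partners and proteases to -0.0066 for ATF6 and ER folding, and Comp and Thbs4 lie at -2.62 and -2.28.

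The genes most alike to each member across hearts were listed by Pearson's r of log2 CPM over the 6 libraries, among 10413 protein-coding genes with a mean of at least 5 CPM. For Comp these were Itgbl1, the proteoglycan biglycan (Bgn) and 9530068E07Rik (r = 0.999, 0.998 and 0.998), and 416 genes exceeded 0.95. For Thbs4 they were the matrix Gla protein Mgp, Yipf5 and the ER export receptor Lman1 (0.999, 0.998 and 0.996), with 231 genes over 0.95. Thbs1 was closest to Meox1, one of the activated fibroblast markers, then Wsb1 and Adcyap1r1 (0.991, 0.990 and 0.989), with 51 genes over 0.95. For Thbs2 they were Ero1l, Tmem189 and Ewsr1 (0.996 each, 66 genes over 0.95), and for Thbs3 Cep89, Sptlc2 and Pla2g4a (0.999, 0.998 and 0.997, 463 genes over 0.95). A high r did not go with an equal difference. Itgbl1 and Bgn had log2 fold changes of -1.36 ± 0.32 and -1.40 ± 0.33 (SE) beside -2.62 for Comp, and Cep89 had -0.09 ± 0.12 beside -0.94 for Thbs3. The 6 libraries share the contrast and their depth, and these values are descriptions.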

How the data were processed

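Poly-A selected RNA-seq of the left ventricle was analysed for 3 TG and 3 NTG mice after AB. Per the methods, the authors filtered reads with in-house scripts, aligned them, ran StringTie and summarized reads on genes by featureCounts. The deposited raw counts, with a column for each heart, were used. The submitters' processing notes name HISAT2, DESeq2 and the human build GRCh38, whereas the gene identifiers in the table are mouse, and 98.3% of the 54409 genes found in GENCODE M21 (GRCm38) had identical coordinates. Strand setting and treatment of multi-mapping reads are not given in the sources used here, so overlapping genes on opposite strands cannot be told apart. Names of 27 genes had been turned into dates, and 0 columns were unmatched.

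The family and all gene lists were chosen with earlier results of these data known. The count model was edgeR 4.0.16 under R 4.3.3 (TMM, filterByExpr by group, robust glmQLFit, glmQLFTest), with Benjamini-Hochberg adjustment over 14774 genes. Calls required an adjusted p under 0.05 together with a log2 fold change beyond 0.5 in either direction. SE was derived from the fold change and its F statistic. The scripts were first tested on simulated counts. Named genes were the members, for each list 3 genes of lowest unadjusted p in the direction of its median, the 3 genes most alike to each member, genes beside or overlapping a member, and Hint2. Other genes named are markers or examples of a list, chosen after their values were seen. Alternatives comprised 16 settings, among them DESeq2 1.42.0 and limma 3.58.1 (voom), and 8 added after the values had been seen. Whether mice shared litters, cages or days is not stated. The p-values of the count fits rest on the spread between these hearts, with each gene's spread drawn toward a trend over all genes. The permutation p-values rest on differences between members within each heart. Any 2 libraries differed by at least 15.5 in chi-square per gene, so none was a copy of another. The lowest count of a member in a library was 145, and counting error was not separated from the spread between hearts.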

Additional observations from a re-analysis of the deposited data

How the results depend on the processing

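All 5 members kept a negative log2 fold change in 22 of 22 alternatives. Over the leave-one-out fits, it ran from -3.36 to -2.11 for Comp, -1.45 to -0.30 for Thbs1, -0.93 to -0.42 for Thbs2, -1.20 to -0.69 for Thbs3 and -3.48 to -1.92 for Thbs4, whose value without TG 2 was -3.47 by DESeq2. The median of the receptors ran from -0.33 to -0.12 over these fits and was -0.12 without NTG 2 by either tool. The other list medians ran from -1.01 to -0.55 for matrix partners, -0.37 to -0.17 for TGF-beta genes and -0.50 to -0.12 for tendon and cartilage genes.

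How many genes were called depended on the tool and on single libraries. edgeR called 0 higher and 0 lower (1305 and 1442 at an unadjusted p under 0.05), as did voom, edgeR with robust = FALSE, another scaling, a stricter filter or no fold minimum. It called 116 higher and 116 lower with no low-count filter. DESeq2 called 228 and 355, and 354 and 458 with the replicate block. Leaving out 1 library gave 0 to 404 higher and 0 to 432 lower by edgeR, with the most without NTG 1, and 29 to 896 higher and 67 to 877 lower by DESeq2, which called 896 and 877 without NTG 1, 47 and 76 without NTG 2, 40 and 129 without NTG 3, 103 and 76 without TG 1, 292 and 486 without TG 2, and 29 and 67 without TG 3. The cause was not tested.

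With the replicate number as a block, edgeR called 84 higher and 147 lower. Deviations of same-numbered libraries from their group means correlated at 0.0807, 0.173 and -0.252, so the numbers were not taken as pairing the samples.

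The number of member pairs with the same order in every heart was 6 to 8 over the alternatives, with 6 for the transcript length, where Thbs4 over Comp no longer held in every heart.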
